A study of Mus musculus with 16 samples.

Results

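The genes described are 10 components of the machinery that loads and runs the DNA replication helicase: the subunits Mcm2, Mcm3, Mcm4, Mcm5, Mcm6 and Mcm7, the loading factors Cdc6 and Cdt1, the fork factor Mcm10 and the sliding clamp Pcna. They were found by symbol, 10 genes of 30570 tested and 17 probes of 56605 on the array, and the set was chosen by a measured value of these data, the lower Mcm5 signal at 10 days of treatment. Values of the contrast between 10 days and vehicle are therefore a description and carry no test. RNA came from orthotopic pancreatic tumours of female C57BL/6 mice, and all 3 groups share that strain, sex and tumour model. The vehicle group has 6 arrays, and the groups treated with ADH-503 (called LA1 in the sample titles), an agonist of the CD11b integrin of myeloid cells, have 5 arrays at 48 h and 5 at 10 days. No time is given for the vehicle samples, and animal age, tumour cell line and dose are not given in the sources used here. The samples are not stated to come from separate animals, so p-values here speak only of the spread between these arrays, which may be technical in part.

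The Mcm2 to Mcm7 proteins form a ring that unwinds DNA at replication forks. In G1 phase the origin recognition complex, Cdc6 and Cdt1 load the ring onto origins, and in S phase Cdc45 and the GINS complex turn it into an active helicase, while PCNA encircles DNA and tethers polymerases. Transcription of these genes is a well known output of E2F factors at the G1/S transition, and their RNA is widely used as a sign of cycling cells, in pancreatic tumours as elsewhere.

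Because the subunits are known to be transcribed together, the 250 bases before the start are shown for Mcm5, which chose the set, for Mcm7 and Mcm2, the subunits that followed it most closely between arrays, for Mcm6, whose window holds the most E2F words, and for the loading factor Cdc6. The sequences are those of RefSeq on GRCm38.p6, and the table used here matched 9 of the 10 genes, all but Mcm4. Each is written 5′ to 3′ on the strand of its gene. Capitals mark matches on either strand to the E2F words TTTCCCGC, TTTCGCGC, TTTGCCGC and TTTGGCGC and to the word CCAAT.
Mcm5, chr8:75109259-75109508, plus strand: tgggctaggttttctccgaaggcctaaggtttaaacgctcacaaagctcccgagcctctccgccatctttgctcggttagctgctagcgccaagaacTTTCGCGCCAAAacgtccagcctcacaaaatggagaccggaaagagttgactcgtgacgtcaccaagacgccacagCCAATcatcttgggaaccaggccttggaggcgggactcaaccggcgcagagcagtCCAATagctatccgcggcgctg
Mcm6, chr1:128359706-128359955, minus strand: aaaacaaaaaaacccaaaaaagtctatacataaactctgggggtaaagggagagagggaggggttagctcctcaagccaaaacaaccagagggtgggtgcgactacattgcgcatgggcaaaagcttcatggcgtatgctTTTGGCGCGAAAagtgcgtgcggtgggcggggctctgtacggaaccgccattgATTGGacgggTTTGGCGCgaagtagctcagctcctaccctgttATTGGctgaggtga
Mcm7, chr5:138171884-138172133, minus strand: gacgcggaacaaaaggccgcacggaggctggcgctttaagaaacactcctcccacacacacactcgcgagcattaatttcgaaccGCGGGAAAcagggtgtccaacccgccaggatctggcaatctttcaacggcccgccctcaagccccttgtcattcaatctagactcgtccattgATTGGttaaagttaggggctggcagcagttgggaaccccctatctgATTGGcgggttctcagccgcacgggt
Mcm2, chr6:88898781-88899030, minus strand: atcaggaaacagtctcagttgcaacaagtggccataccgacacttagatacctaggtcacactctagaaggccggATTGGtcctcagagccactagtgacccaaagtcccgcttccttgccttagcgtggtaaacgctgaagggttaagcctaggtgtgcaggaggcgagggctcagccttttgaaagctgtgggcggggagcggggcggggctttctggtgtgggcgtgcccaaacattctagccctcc
Cdc6, chr11:98907901-98908150, plus strand: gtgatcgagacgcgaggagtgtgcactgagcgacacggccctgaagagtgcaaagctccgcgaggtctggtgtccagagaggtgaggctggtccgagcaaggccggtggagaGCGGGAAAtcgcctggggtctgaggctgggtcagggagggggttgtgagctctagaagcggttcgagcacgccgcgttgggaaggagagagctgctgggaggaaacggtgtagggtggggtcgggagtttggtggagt

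In the Mcm5 window 2 E2F words on opposite strands overlap, with first bases at -153 and -149 from the start, and CCAAT lies at -77 and -22. The Mcm6 window has such an overlap too, at -110 and -106, and a further E2F word at -47. Over the whole windows of 300 bases, from 250 before to 50 after the start, an E2F word was found in 6 of the 10 windows of these genes (Mcm7 has 2 windows), against 2.26% of 32851 windows in the table. Before the start it was found in 4 of the 10, against 1.86%. The 6 were those of Mcm3, Mcm5, Mcm6, Cdc6 and Cdt1 and the first of Mcm7; none of these words lay in the windows of Mcm2, Mcm10 and Pcna. CCAAT was in 8 of 10 windows against 37.4% of all, and the GC box word GGGCGG in 8 of 10 against 35.7%. These are matches of letters and were not tested for binding.

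Each array is a 1-colour Agilent mouse array read in Cy5, and values are log2 signals relative to the array's own 75th percentile; a probe's level is compared only with itself on other arrays. That percentile lay between 4953 and 6736 in processed signal, 74.9% to 81.2% of probes were well above background, and pairs of arrays correlated at r = 0.942 to 0.976 across genes. The probe used for each of the 10 genes was well above background on all 16 arrays, so every gene passed the filter on dim probes and none is a bound. The arrays lie on 2 slides, and slide 1 carries vehicle replicate 1 with 4 arrays of 48 h and 3 of 10 days, while the other 5 vehicle arrays share slide 2 with 1 array of 48 h and 2 of 10 days. The 12 duct and tumour epithelium markers, Krt19, Krt8 and Epcam among them, were above background on all 16 arrays. Vehicle replicate 2 and 48 h replicate 5 carry the same ID number in their titles, while the description of the vehicle sample gives another. These 2 arrays correlated at r = 0.949, 5 of 120 pairs of arrays correlated less, and both were kept. Without both arrays Mcm5 lay at -0.68 at 10 days against vehicle and -0.35 at 48 h, in place of -0.62 and -0.27.

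Mcm5, a subunit next to the gate through which the ring opens, had the lowest values of its probe in the 10 day group. The vehicle arrays ran from -1.33 to -0.52 with a median of -0.73. The 10 day arrays read -1.82, -2.12, -1.26, -1.02 and -1.02 (replicates 1 to 5). The 48 h arrays read -1.04, -1.23, -0.79, -1.41 and -0.99. Replicates 1 and 2 at 10 days lay under every other array, replicates 3, 4 and 5 lay inside the vehicle range, and all 5 were below the vehicle mean. The group means were -0.83 ± 0.34 (SD, n = 6) in vehicle, -1.09 ± 0.24 (SD, n = 5) at 48 h and -1.45 ± 0.50 (SD, n = 5) at 10 days, a log2 difference of -0.62 ± 0.22 (SE) at 10 days. Leaving out 1 array at a time, the difference ran from -0.73 without 10 day replicate 4 to -0.45 without 10 day replicate 2. In bulk RNA, fewer cycling cells and less RNA per cell cannot be told apart.

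Each of the other subunits had a mean at 10 days that lay within 0.25 of vehicle on the log2 scale. Mcm7, which forms part of the ring's ATPase core, read 1.23, 1.04, 1.67, 1.66 and 1.95 at 10 days, against 1.46 to 2.05 with a median of 1.73 in vehicle. Replicates 1 and 2 again lay under the whole vehicle range and replicates 3 to 5 inside it, and the difference was -0.21 ± 0.15 (SE). Mcm2, the subunit that also carries parental histones, read 0.73, 0.88, 1.03, 1.18 and 1.42 at 10 days against 0.93 to 1.28 with a median of 1.09, so that its 10 day group reached both under and over the vehicle range, with a difference of -0.04 ± 0.13 (SE). Mcm6, another ATPase subunit, read 2.43, 2.10, 2.45, 2.57 and 2.82 against 2.39 to 2.82 with a median of 2.60. Only replicate 2 lay below its vehicle range, at a difference of -0.14 ± 0.13 (SE). Mcm4, a main target of the kinase that fires origins, lay at -0.14 ± 0.10 (SE), with 10 day values from 2.39 to 2.80 against 2.58 to 2.83. Its replicates 1 to 4 (2.57, 2.39, 2.48 and 2.57) lay under the vehicle range, the nearest by little, and replicate 5 inside it. Mcm3, the partner of Mcm5 in the ring, lay at -0.12 ± 0.12 (SE), with 2.35 to 2.91 against 2.45 to 2.90. In both genes replicate 2 was the lowest 10 day array and replicate 5 the highest.

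**Figure D1:**
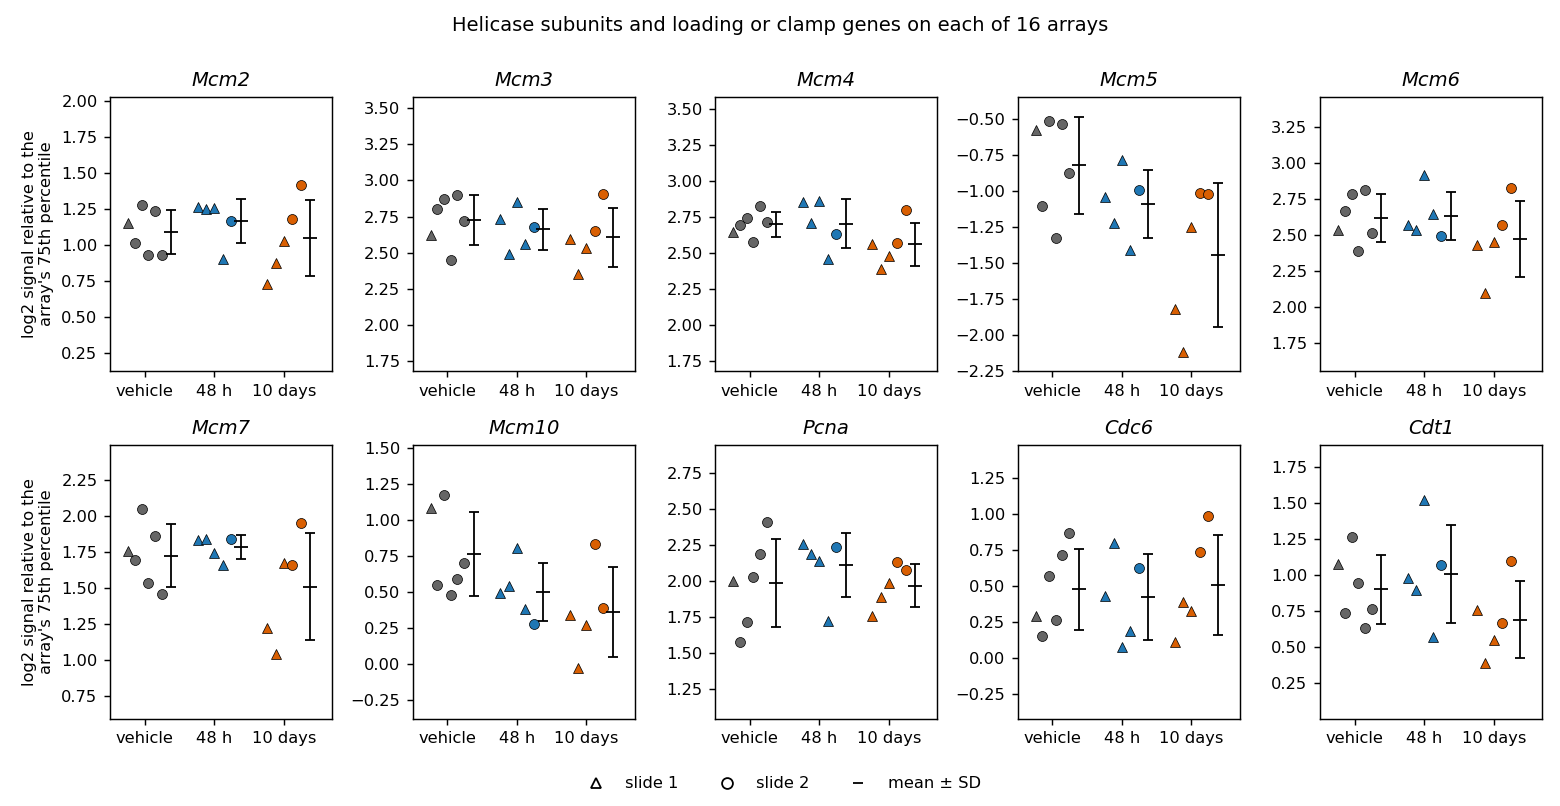
Log2 signal relative to each array's 75th percentile (vertical axes, each spanning the same number of log2 units) for the 10 genes in vehicle, 48 h and 10 day arrays; triangles are arrays on slide 1, circles arrays on slide 2, and bars the group mean ± SD. The low 10 day values of Mcm5 (-1.82 and -2.12) and Mcm7 (1.23 and 1.04) come from the same arrays, replicates 1 and 2, both on slide 1.

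Among the factors around the ring, Mcm10, which binds the helicase when it is activated, was the furthest from vehicle at 10 days on its brighter probe, though not over the mean of its probes (-0.17). It read 0.34, -0.03, 0.27, 0.83 and 0.39 at 10 days, against 0.48 to 1.17 with a median of 0.65 in vehicle. Of the 5 arrays 4 lay under the vehicle range and replicate 4 inside it, with a difference of -0.40 ± 0.17 (SE). Cdt1, which brings the ring to the origin and is held back by geminin, read 0.75, 0.39, 0.55, 0.67 and 1.1 against 0.63 to 1.27 with a median of 0.85, a difference of -0.21 ± 0.17 (SE), with replicates 2 and 3 below the vehicle range. The clamp Pcna read 1.76, 1.89, 1.98, 2.13 and 2.07 against 1.58 to 2.41 with a median of 2.01, all inside the vehicle range, at -0.02 ± 0.15 (SE). Cdc6, the ATPase that recruits Cdt1 and the ring, was the gene of the 10 with a positive difference, at 0.03 ± 0.19 (SE). It read 0.11, 0.39, 0.33, 0.74 and 0.99 against 0.16 to 0.87 with a median of 0.43.

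Of the 10 genes 9 had a negative difference at 10 days, where 52% of all genes tested did, and the median was -0.14 against -0.0086 over all genes. This contrast chose the set, so nothing is read from the count. The groups did not separate fully for any of the 10, and did so for 0.216% of all genes. In limma 0 of 30570 genes (0%) passed the adjusted threshold of 0.05 in any of the 3 comparisons. At an unadjusted p under 0.05 there were 2.55% of genes at 48 h, 3.54% at 10 days and 3.47% between the treated groups.

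**Figure D2:**
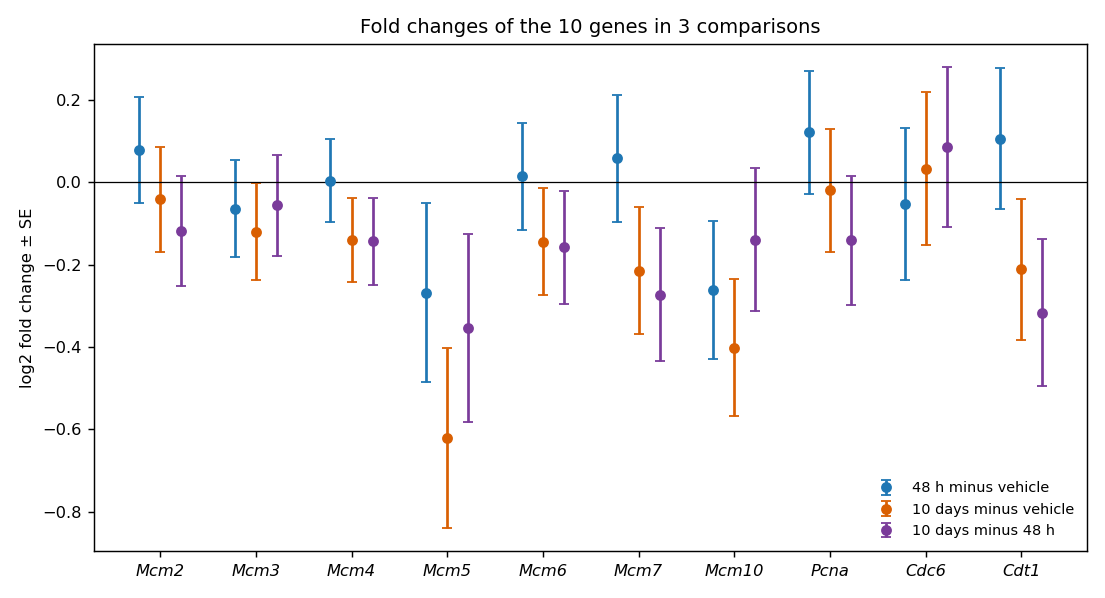
Log2 fold change ± SE from limma (vertical axis) for each of the 10 genes (horizontal axis) in 48 h minus vehicle, 10 days minus vehicle and 10 days minus 48 h. Mcm5 lies at -0.62 at 10 days against vehicle and Mcm10 at -0.40, while Pcna and Cdc6 lie at -0.02 and 0.03.

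The values of the 10 day arrays are also given by slide. They were averaged over Mcm2 to Mcm7, a mean that includes Mcm5, the gene that chose the set. The 3 arrays of 10 days on slide 1 read 1.29, 1.11 and 1.49, and the 2 on slide 2 read 1.60 and 1.81. The vehicle array on slide 1 read 1.69, and those on slide 2 lay between 1.43 and 1.87. The 48 h arrays read 1.70, 1.60, 1.81 and 1.47 on slide 1 and 1.64 on slide 2, which lies inside the range of the former. Within slide 1 all 10 genes were lower at 10 days than on the single vehicle array, Mcm5 by -1.15, Mcm10 by -0.89, Cdt1 by -0.51, Mcm7 by -0.45 and Mcm2 by -0.27. The remaining subunits differed less there, Mcm6 by -0.21, Mcm4 by -0.16 and Mcm3 by -0.13. Within slide 2, where 2 arrays of 10 days meet 5 of vehicle, 3 of the 10 genes were lower, Mcm5 by -0.14, Mcm10 by -0.09 and Mcm4 by -0.03. Mcm2 lay there at 0.22, Cdc6 at 0.35, Mcm7 at 0.09 and Mcm6 at 0.06. With slide as a block in the fit 7 of 10 lay below 0, with Mcm5 at -0.51, Mcm10 at -0.41, Mcm7 at -0.12, Mcm2 at 0.03, Pcna at 0.04 and Cdc6 at 0.20. The part of the slide in the difference was not tested.

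At 48 h the subunits other than Mcm5 stayed near vehicle. This comparison shares its vehicle arrays with the one that chose the set. No gene tested passed in limma at 48 h, and among the 9 genes other than Mcm5 the smallest adjusted p was 0.99998. Of these 9 genes 0 reached an unadjusted p under 0.05, against 2.55% of all genes. The smallest unadjusted p in limma was 0.137, for Mcm10. Mcm2 lay at 0.08 (95% interval from -0.19 to 0.35), Mcm7 at 0.06 (from -0.27 to 0.39), Mcm6 at 0.01 (from -0.26 to 0.29), Mcm4 at 0.00 (from -0.21 to 0.22) and Mcm3 at -0.06 (from -0.31 to 0.19). For these 5 subunits the intervals leave room for a difference of up to 0.39 in size. Mcm10 read 0.49, 0.54, 0.81, 0.38 and 0.28 at 48 h, a difference of -0.26 (from -0.62 to 0.09), with 4 of 5 arrays under the vehicle mean. Pcna lay at 0.12 (from -0.20 to 0.44), Cdt1 at 0.11 (from -0.26 to 0.47) and Cdc6 at -0.05 (from -0.45 to 0.34). Mcm5 is given as a description, at -0.27 ± 0.22 (SE), with 4 of 5 arrays under the vehicle mean.

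Of the 10 genes 4 were below 0 at 48 h, where 53.2% of all genes were and 46.8% lay above 0, with a median of 0.0085 against -0.013 over all genes. The signs of several of these small differences depended on the setting: with slide as a block Mcm3 lay at 0.04 and Cdc6 at 0.19, and within slide 2 Mcm4 lay at -0.08 and Mcm6 at -0.14. Between the treated groups, which share the 10 day arrays with the choosing contrast and are described only, 9 of 10 genes were lower at 10 days, against 48.9% of all genes, with 51.1% above 0. Mcm5 lay at -0.35 ± 0.23 (SE), Cdt1 at -0.32 ± 0.18 (SE) and Mcm7 at -0.27 ± 0.16 (SE). The order of the group means of Mcm5, Mcm10 and Mcm3 was vehicle, 48 h, 10 days from high to low. In Mcm5 neighbours in that order differed by 0.27 and 0.35, within the pooled SD of 0.37 between arrays of a group.

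Between arrays of the same group, where the choice of genes used no contrast, the subunits varied together. For this each array's Mcm5 level was set beside the other genes after group means were removed, over 16 arrays. Mcm7 correlated with Mcm5 at r = 0.83 (permutation p = 0.0016; rho = 0.81, p = 0.0040) and Mcm2 at r = 0.82 (permutation p = 0.0011; rho = 0.86, p = 0.00072). Mcm6 had r = 0.75 (permutation p = 0.0030; rho = 0.71, p = 0.0050), Mcm3 r = 0.74 (permutation p = 0.0032; rho = 0.71, p = 0.0046) and Mcm4 r = 0.65 (permutation p = 0.0072; rho = 0.67, p = 0.0075). Mcm10 had r = 0.70 (permutation p = 0.0076; rho = 0.70, p = 0.0067) and Cdt1 r = 0.54 (permutation p = 0.033; rho = 0.51, p = 0.060). For Cdc6, with r = 0.44 (permutation p = 0.13; rho = 0.43, p = 0.14), and Pcna, with r = 0.39 (permutation p = 0.13; rho = 0.37, p = 0.17), the relation did not pass 0.05. Permutations were drawn within groups and 2-sided, and 9 relations were computed.

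**Figure D3:**
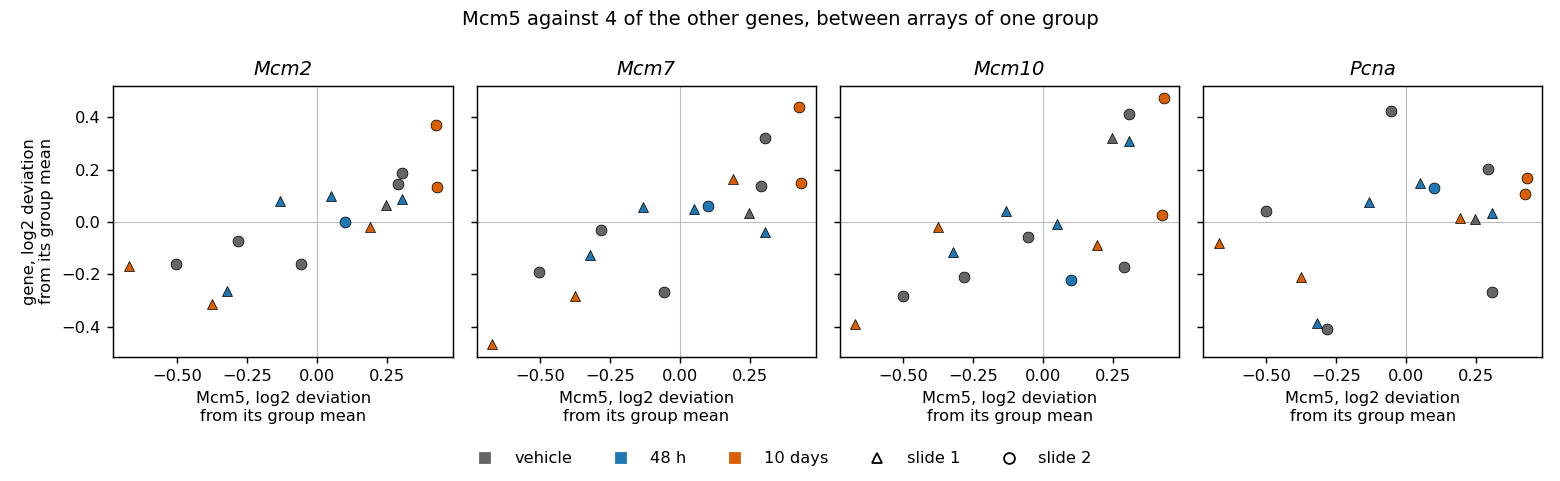
Deviation of Mcm2, Mcm7, Mcm10 and Pcna from the group mean (vertical axis, log2) against that of Mcm5 (horizontal axis, log2), 1 point per array; colour gives the group, triangles slide 1 and circles slide 2. Mcm2 and Mcm7 line up with Mcm5 at r = 0.82 and 0.83, Mcm10 at 0.70 and Pcna at 0.39, and 10 day replicates 1 and 2 are the triangles farthest to the left.

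Without 10 day replicates 1 and 2, the arrays farthest from the median of Mcm5, the correlation was 0.76 for Mcm2, 0.69 for Mcm3, 0.65 for Mcm10, 0.62 for Mcm4, 0.61 for Mcm7 and 0.60 for Mcm6. Within slide 1 these 6 genes had r from 0.60 to 0.82, and within slide 2 from 0.59 to 0.78, on 8 arrays each. The vehicle array of slide 1 and the 48 h array of slide 2 are alone in their group there. They have no deviation from a group mean and add nothing to r. Within slide 1 alone 0 of the 6 had a p under 0.05 (exact permutation p = 0.090 to 0.15), and within slide 2 alone 2 did, Mcm3 (exact permutation p = 0.033) and Mcm4 (exact permutation p = 0.017). Cdt1 had 0.62 and 0.14, Pcna 0.54 and 0.10, and Cdc6 -0.19 and 0.64. The relation of Cdt1 passed 0.05 or not depending on single arrays: without vehicle replicate 3, 48 h replicate 3 or 4, or 10 day replicate 2 or 5 its r lay between 0.45 and 0.50 and did not pass. That of Pcna passed without vehicle replicate 3 (r = 0.52), and that of Cdc6 without 48 h replicate 3 (r = 0.59).

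Fitted over all 30569 other genes in limma with the Mcm5 level as a covariate beside the groups, 0 genes (0%) passed, and the smallest adjusted p of any gene was 0.061. The 9 genes had adjusted p from 0.136 (Mcm7) to 0.486 (Pcna) in limma. At an unadjusted p under 0.05 with a positive slope there were 7 of the 9 genes, all but Pcna and Cdc6, against 7.54% of all genes, and with slide as a block 5 of the 9 against 5.56%. The slope was above 0 for 9 of 9 genes and for 43% of all genes. Mcm7 had a slope of 0.56 ± 0.13 (SE) and Mcm2 one of 0.43 ± 0.11 (SE) log2 units per log2 unit of Mcm5, and Mcm4 the smallest among the subunits, at 0.24 ± 0.11 (SE).

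How closely genes followed Mcm5 depended on the scaling of the arrays. With arrays scaled to their median in place of the 75th percentile, 2140 genes (7.0%) passed, 2037 of them with a positive slope and 6 of the 9 genes among them, and the slope was above 0 for 59.9% of all genes. In the quantile-normalized values that the authors deposited, 3 genes passed, with none of the 9 among them, and 5 of the 9 had an unadjusted p under 0.05 with a positive slope against 8.14% of all genes. There Mcm2 had r = 0.79, Mcm7 0.75, Mcm10 0.67, Mcm3 0.66, Mcm6 0.62 and Mcm4 0.35, and with the median 0.89, 0.90, 0.81, 0.86, 0.86 and 0.84. The distance between an array's 75th percentile and its median, by which the first 2 scalings differ, had a within-group SD of 0.10 log2 units, and its correlation with Mcm5 within groups was 0.63. Its correlation with the 10 genes ran from 0.27 to 0.63, against a median of -0.18 over all genes. Its part in the relations was not tested. The median fold change of all genes moved by under 0.1 between these scalings.

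Among themselves the 6 subunits formed a block. Their 15 pairs had r from 0.56 (Mcm4 with Mcm7) to 0.89 (Mcm3 with Mcm6), with a median of 0.73. With slide as a block the pairs ran from 0.51 to 0.88 (median 0.70), without the 2 farthest arrays from 0.50 to 0.86 (median 0.64), in the authors' quantile-normalized values from 0.35 to 0.83 (median 0.62) and with arrays scaled to the median from 0.77 to 0.94. Mcm2 and Mcm7 correlated at 0.87 and Mcm3 and Mcm4 at 0.82. These pair values share the same 16 arrays and are given with no p.

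**Figure D4:**
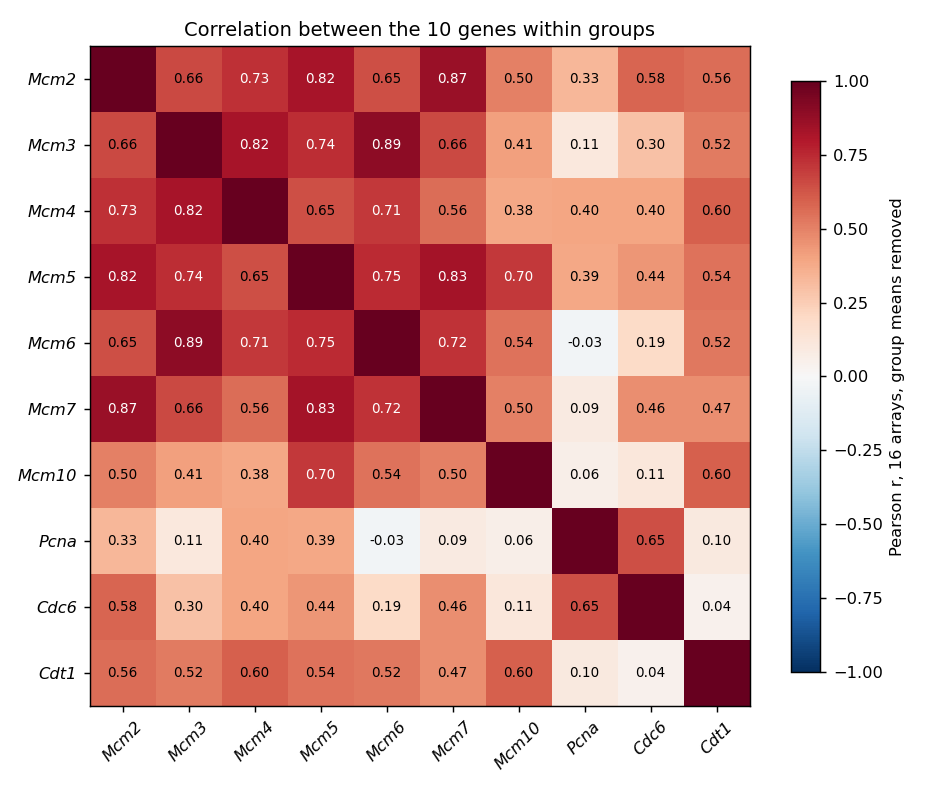
Pearson r between each pair of the 10 genes over 16 arrays with group means removed (colour scale from -1 to 1, value in each cell). Cells among Mcm2 to Mcm7 lie between 0.56 and 0.89, while the row of Pcna holds values from -0.03 to 0.65.

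The 4 other genes were set beside the subunits in the same way. Across the 24 pairs of a subunit with one of them r ran from -0.03 (Mcm6 with Pcna) to 0.70 (Mcm5 with Mcm10), with a median of 0.45. Each subunit correlated with the mean of the other 5 at 0.75 (Mcm4) to 0.87 (Mcm5), and against the mean of all 6 Mcm10 had 0.61, Cdt1 0.60, Cdc6 0.45 and Pcna 0.25. Pcna and Cdc6 correlated with each other at 0.65, as did Mcm10 and Cdt1 at 0.60, while Cdc6 and Cdt1, which act in the same loading step, had 0.04. The differences between these correlations were not tested.

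The wider replication pathway was described with lists of genes that act before, with or after the ring, and 0 genes of each list passed in limma in either direction at 48 h or 10 days. Of 19 origin licensing and firing genes 12 were below 0 at 10 days (median -0.02), where 52% of all genes were. Cdc45, which joins the ring to make the active helicase, lay at -0.39 ± 0.16 (SE), and Gins1, of the GINS complex, at -0.26 ± 0.17 (SE). The highest values were Mtbp, a firing factor, at 0.33 ± 0.18 (SE) and the origin recognition subunit Orc2 at 0.19 ± 0.13 (SE). Within groups Gins1, Gins2 and Gins4 correlated with Mcm5 at 0.85, 0.84 and 0.78. Mtbp had r = -0.01 and Recql4 -0.69, the lowest of the list. Of the 19 genes, 5 followed Mcm5 at an unadjusted p under 0.05 with a positive slope, against 7.54% of all genes. Only Recql4 reached that threshold with a negative slope, where 8.92% of all genes did, and 5 slopes in all were below 0.

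Of 30 replisome and clamp loader genes 23 were below 0 at 10 days (median -0.05), where 52% of all genes were. Of the 30, 14 followed Mcm5 at an unadjusted p under 0.05 with a positive slope, against 7.54% of all genes, and 29 had a slope above 0, against 43%. The flap nuclease Fen1, which trims Okazaki fragments, had r = 0.86 with Mcm5, the catalytic subunit of polymerase delta Pold1 0.85 and the primase subunit Prim2 0.79. Their 10 day values were -0.16 ± 0.21 (SE), -0.07 ± 0.14 (SE) and 0.03 ± 0.18 (SE). The list's extremes at 10 days were the polymerase epsilon gene Pole at -0.22, the fork protection gene Tipin at -0.19, the fork scaffold Wdhd1 at 0.27 and the single-strand binding subunit Rpa2 at 0.11. In this list the genes closest to Mcm5 between arrays were not those at the extremes at 10 days.

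Nucleotide supply genes were below 0 at 10 days in 9 of 10 cases (median -0.17; 52% of all genes). Dut, which removes dUTP, lay at -0.37 ± 0.21 (SE) and the thymidylate synthase Tyms at -0.32 ± 0.16 (SE), while the reductase subunit Rrm2b lay at 0.08 and the thymidylate kinase Dtymk at -0.03. Tyms, Dut and Rrm2 had r = 0.79, 0.79 and 0.78 with Mcm5 within groups, and 4 of the 10 followed it at an unadjusted p under 0.05 with a positive slope (7.54% of all genes). Shmt1 (r = -0.52) reached that threshold with a negative slope, where 8.92% of all genes did, and 2 of the 10 slopes were below 0. Of 27 E2F and G1/S regulators 20 were below 0 (median -0.10; 52% of all genes), with the D-type cyclin Ccnd1 at -0.32 ± 0.16 (SE), its kinase Cdk4 at -0.23 ± 0.14 (SE), Tfdp2, a dimer partner of E2F, at 0.18 and E2f5 at 0.09. The atypical repressor E2f8 (r = 0.82), cyclin E1 gene Ccne1 (r = 0.81) and cyclin A2 gene Ccna2 (r = 0.77) were closest to Mcm5, and 11 of 27 followed it at an unadjusted p under 0.05 with a positive slope (7.54% of all genes).

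Of 10 chromatin assembly genes 8 were below 0 (median -0.08; 52% of all genes), with Uhrf1, which guides maintenance methylation, at -0.25 ± 0.14 (SE) and the lamin gene Lmnb1 at -0.18. Asf1b, a histone chaperone that works with the ring, had r = 0.86 with Mcm5, Uhrf1 0.73 and Hmgb2 0.50. Among the genes of this list above background on all 16 arrays Chaf1b lay highest at 10 days, at 0.04. Asf1a, above background on 15 arrays, lay higher, at 0.90 ± 0.38 (SE), with r = -0.63 to Mcm5. In this list 2 of the 10 followed Mcm5 at an unadjusted p under 0.05 with a positive slope (7.54% of all genes). With a negative slope 1 did, Asf1a (8.92% of all genes). Mitotic genes were below 0 in 23 of 25 cases (median -0.17; 52% of all genes), with Top2a at -0.47 ± 0.19 (SE), Bub1b at -0.38 ± 0.21 (SE), Kif11 at 0.07 and Cenpa at 0.03. Aurka, Cdk1 and Birc5 had r = 0.83, 0.80 and 0.77 with Mcm5, and 10 of the 25 followed it at an unadjusted p under 0.05 with a positive slope (7.54% of all genes). Within groups Mcm8, Mcm9 and Mcmdc2, relatives of the subunits that are not part of the ring, had r = 0.09, 0.31 and -0.64 with Mcm5.

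Beside these, 12 housekeeping genes had a median r of 0.36 with Mcm5, above 0 in slope in 11 of 12 cases, and 2 followed it at an unadjusted p under 0.05 with a positive slope (7.54% of all genes). Gusb had r = 0.78, Hprt 0.68 and Ppia 0.62, and at 10 days Ywhaz lay at -0.18, Rplp0 at -0.13 and Tbp at 0.12. The medians of the replication lists were 0.47 for licensing, 0.53 for the replisome, 0.47 for nucleotide supply, 0.46 for E2F and G1/S genes, 0.47 for chromatin and 0.50 for mitosis, and that of the 5 other subunits 0.75. With arrays scaled to the median the housekeeping median was 0.64, against 0.72 for the replisome and 0.86 for the subunits, and in the authors' values 0.32, 0.48 and 0.66. The differences between lists were not tested.

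**Figure D5:**
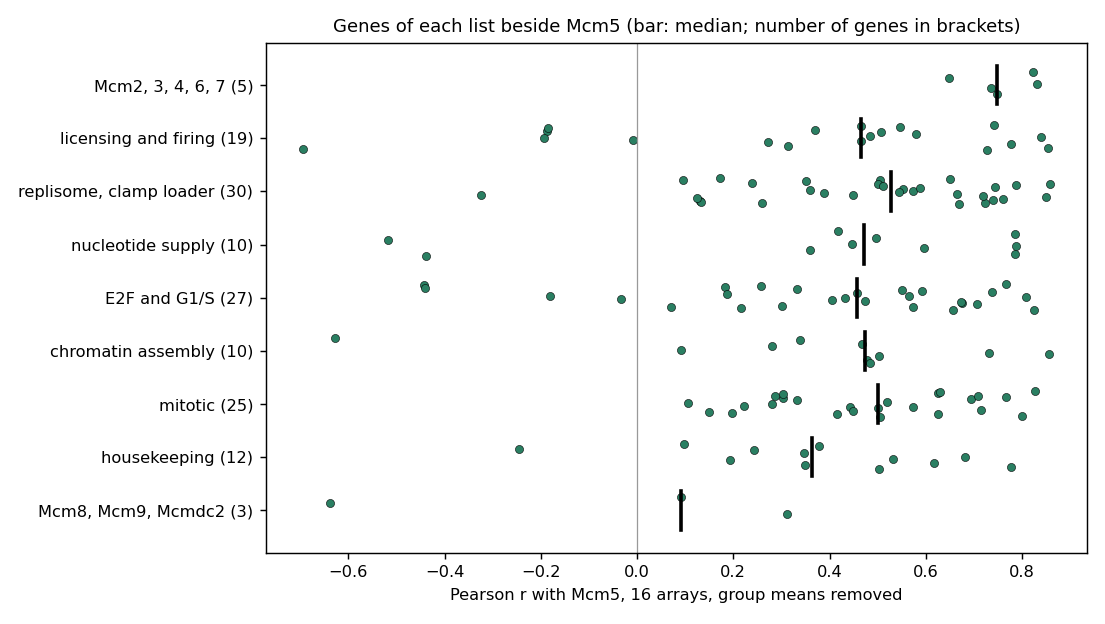
Pearson r with Mcm5 over 16 arrays with group means removed (horizontal axis), 1 point per gene, for the subunits and each list (vertical axis, number of genes in brackets); bars are medians. The 5 subunits lie between 0.65 and 0.83, the replisome list has a median of 0.53 and the housekeeping list 0.36.

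Markers of other cell types were set beside Mcm5. Of 14 acinar markers 0 had a positive slope with Mcm5 within groups (median r = -0.48), and 5 had an unadjusted p under 0.05 with a negative slope, where 8.92% of all genes did. The summed acinar level, relative to the 75th percentile, ran from 26.3 to 84.8 in vehicle, 82.2 to 118 at 48 h and 21.9 to 117 at 10 days. The list mean had r = -0.50 with Mcm5 (permutation p = 0.14; rho = -0.55, p = 0.089; r without the 2 farthest arrays -0.56), with p = 0.48 after adjustment over the 10 marker lists, and r was 0.40 within slide 1 and -0.93 within slide 2. Of 10 erythroid markers 8 had a positive slope, 4 of them globin genes, which include near-identical copies, with an unadjusted p under 0.05 (7.54% of all genes). The erythroid list mean had r = 0.52 with Mcm5 (permutation p = 0.039) and rho = 0.59 (permutation p = 0.018). After adjustment over the 10 marker lists the permutation p of r was 0.39, and without the 2 farthest arrays r was 0.40. Their summed level ran from 2.06 to 32.4 in vehicle, 0.76 to 6.92 at 48 h and 0.89 to 3.81 at 10 days, and 5 of the 10 were not above background on every array. Of the 12 epithelial markers 2 had a positive slope (median r = -0.26), and their summed level ran from 12.1 to 57.7, 7.0 to 46.9 and 5.9 to 33.9. Of 10 macrophage markers 5 had a positive slope (median r = 0.10), with summed levels of 126 to 160, 150 to 173 and 145 to 163. Over islet, granulocyte, T cell, B cell, fibroblast and endothelial lists the median r lay between -0.17 and 0.17. At 10 days against vehicle, where Mcm5 was lower, 10 of 10 granulocyte markers were below 0 (median -0.71, and -0.67 with slide as a block), 10 of 10 erythroid (-1.50 and -1.32), 11 of 12 epithelial (-0.50 and -0.85) and 11 of 14 acinar (-0.14 and -0.45), against 52% of all genes. Of the other lists, islet had 6 of 6 below 0 (median -0.10), T cell 8 of 9 (-0.13) and endothelial 8 of 9 (-0.21). B cell had 5 of 9 (-0.04), fibroblast 5 of 10 (-0.005) and macrophage 1 of 10 (0.07). The part of these cells in the values of the 10 genes was not tested.

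Between arrays of a group, the genes most like the mean of Mcm2 to Mcm7, among 18211 ranked genes, were Acot7, a thioesterase of fatty acyl-CoA (r = 0.96), Etfb, a subunit of the electron transfer flavoprotein (r = 0.93), and the snRNP gene Snu13 (r = 0.92). Next came the sodium and calcium exchanger Slc8a2 and the COP9 signalosome subunit Gps1 (r = 0.92 for both), the augmin subunit Haus8, the citrate synthase Cs, the nucleolar GTPase Gnl3l and the tubulin regulator Stmn1 (r = 0.91 for each), and Pold1 (r = 0.90). The median over all ranked genes was 0.03, and 15.2% of them lay above 0.5. At 10 days against vehicle these 10 ran from -0.59 (Slc8a2) to -0.03 (Snu13). The ranking is over the same 16 arrays and carries no test.

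Where a gene had more than 1 probe, the probes did not always move together. The first 30 bases of the Mcm5 probe and of both probes of Mcm10 and Cdc6, the genes whose probes lay furthest apart in a comparison with vehicle, are those of the deposited scanner files, in lower case throughout.
Mcm5, only probe: tggaaatgtactttggtctgttggctcata
Mcm10, probe used: ttcgtatggagaaaagtttctctgcctaca
Mcm10, second probe: gatgcctttgctgtcctactagtctgacct
Cdc6, probe used: acatagtgagcttgagctggcctggactac
Cdc6, second probe: ccccagaatcttcattttagtaaggtcgtt

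On mm9, the build of the probe positions, the Mcm5 probe lies at chr8:77651350-77651410, the Mcm10 probes at chr2:4911845-4911904 and chr2:4920226-4920285, and the Cdc6 probes at chr11:98782801-98782860 and chr11:98782573-98782632. The second Mcm10 probe was well above background on 15 arrays and correlated with the first at -0.0041 within groups, and it lay at 0.66 at 48 h and 0.06 at 10 days, where the first lay at -0.26 and -0.40. The second Cdc6 probe, above background on 14 arrays, lay at -0.79 at 10 days where the first lay at 0.03, with r = 0.38 between them. Averaged over both probes Cdc6 lay at -0.38 at 10 days and its r with Mcm5 was 0.64 (permutation p = 0.019), while Mcm10 lay at 0.20 at 48 h and -0.17 at 10 days, with r = 0.21 (permutation p = 0.54). The second probes were far dimmer, with vehicle means of -4.75 for Mcm10 and -4.15 for Cdc6, against 0.76 and 0.48 on the probes used. They also varied more between arrays, at 10 days with an SD of 0.87 for both, against 0.31 and 0.35. The average gives both probes equal weight. The low values of Mcm10 and the flat values of Cdc6 therefore rest on the brighter probe.

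The subunits' further probes all lay below 0 at 10 days. The second Mcm7 probe, with r = 0.73 to the first, lay at -0.13, and the second Mcm6 probe, with r = 0.34, at -0.29. It read 0.44, 0.67, 1.44, 1.71 and 1.50 at 10 days against 1.18 to 1.70 in vehicle, again with replicates 1 and 2 lowest. The 3 further Mcm3 probes lay at -0.22, -0.23 and -0.26, with r of 0.78, 0.89 and 0.16 to the one used; the last of them spans 517 bases of the genome and so crosses an intron. On that probe 10 day replicates 1 and 2 read 1.07 and 1.52, against 1.89 to 2.31 in vehicle, and replicates 3 to 5 lay between 2.22 and 2.25.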

How the data were processed

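Per the file headers, the processed signal of each spot is an intensity after background subtraction and surface detrending, with no scaling between arrays; the submitters' processing notes name Agilent Feature Extraction 11.5.1.1 as the image software. A second file deposited by the authors holds log2 values, whose sorted columns differ by at most 0.0043 (quantile-normalized), used as an alternative. Log2 processed signals were averaged over the spots of a probe without control and outlier spots, and each array's 75th percentile was subtracted. Probes were named through a RefSeq table of GRCm38.p6. The brightest probe stands for a gene, and genes well above background on at least 5 of 16 arrays entered limma 3.58.1 under R 4.3.3 (lmFit with 3 group means, robust eBayes, 2-sided, Benjamini-Hochberg over all genes, threshold 0.05), without and with the Mcm5 level as a covariate. Permutation p-values used 100000 draws within groups. The scripts were tested on simulated data. Alternatives were other normalizations, filters, probe rules and moderation, slide as a block or within slides, and leaving out arrays.

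The 10 genes and all lists were chosen with earlier results of these data known. The rule for named genes takes, from each list, the 2 highest and 2 lowest at 10 days and the 3 with the highest r to Mcm5, among genes well above background on all 16 arrays, and the 10 genes most like the mean of Mcm2 to Mcm7; 2 genes taken by this rule are not reported here. The number of arrays limits the precision. Slides come from the scanner headers.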

Additional observations from a re-analysis of the deposited data

Results flagged for a closer look

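In 30 groups of arrays (10 genes in 3 groups) the farthest array was set against Dixon's critical value, which chance passes in about 1 in 20 groups, and 2 groups passed. At 48 h, replicate 4 stood apart as the lowest array for both Mcm2, at 0.903 on the log2 scale against 1.17 to 1.27 on the other 4 arrays, and Pcna, at 1.72 against 2.14 to 2.26. The gap to the nearest array was 0.730 and 0.784 of the group's range. Without that array the difference of Mcm2 at 48 h was 0.14 in place of 0.08 and that of Pcna 0.22 in place of 0.12. The array lies on slide 1, and its Mcm5 value, -1.41, was also the lowest of the 48 h group.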

How the results depend on the processing

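The settings were 16 omitted arrays and 12 other alternatives, of which 10 gave counts of genes, as none were taken within slides. Without single arrays, counts of genes called ran from 0 to 1 in each comparison of groups. Those of genes following Mcm5 ran from 0 to 3. Other settings gave 1 gene at 48 h and 1 at 10 days, without the filter on dim probes. For genes following Mcm5 they gave 3 with the authors' table, 1 with normexp, 2140 with median scaling and 1 with the strict filter. Median scaling and the main scaling each subtract 1 term shared by Mcm5 and every other gene of an array. The cause of the differences between these counts was not tested.

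At 48 h these differences changed sign: with the authors' table Mcm4 (-0.027) and Mcm6 (-0.0053); with normexp Mcm4 (-0.011) and Mcm6 (-0.0012); over all probes Mcm10 (0.20); with the slide block Mcm3 (0.041) and Cdc6 (0.19); within slide 1 Mcm3 (0.039), Cdc6 (0.081) and Cdt1 (-0.080); within slide 2 Mcm4 (-0.078), Mcm6 (-0.14) and Cdc6 (0.11). Without single arrays Mcm4 ran from -0.036 to 0.064, Mcm6 from -0.057 to 0.053, Cdc6 from -0.15 to 0.034 and Cdt1 from -0.022 to 0.21.

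Correlations with Mcm5 that no longer passed were, with the authors' table, Mcm4 (0.35) and Cdt1 (0.47); with normexp Mcm4 (0.18) and Mcm6 (0.47); over all probes Mcm10 (0.21); without the arrays of the shared ID Cdt1 (0.52); within slide 1 Mcm2 (0.66), Mcm3 (0.70), Mcm4 (0.60), Mcm6 (0.73), Mcm7 (0.82), Mcm10 (0.74) and Cdt1 (0.62); within slide 2 Mcm2 (0.78), Mcm6 (0.77), Mcm7 (0.69), Mcm10 (0.59) and Cdt1 (0.14). Newly passing were Pcna (0.60) and Cdc6 (0.62) with median scaling and Cdc6 over all probes (0.64); Cdc6 changed sign within slide 1 (-0.19). Without single arrays Cdt1 ran from 0.45 to 0.66, Pcna from 0.30 to 0.52 and Cdc6 from 0.33 to 0.59. No paired analysis was possible, because of the ID numbers in the titles only the shared one described above recurs between groups. The labels carry no replicate numbers, and those used here follow the order of the samples.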
